A study of Mus musculus with 16 samples.

Results

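The genes described here are 43 lysosomal genes, taken by gene symbol from a table of 55385 genes: hydrolases (cathepsins, glycosidases, sulfatases, lipid-degrading enzymes), their activator proteins, membrane proteins, proton pump subunits and the biogenesis factor Tfeb. All 43 were found and all 43 passed the filter on low counts. They were divided into 8 myeloid-enriched genes (Cd68, Ctss, Ctsd, Ctsz, Ctsc, Ctsh, Lgmn and Grn), known for high levels in microglia and other macrophages, and 35 others that most cell types express. The division came from background knowledge, but it was made with earlier results of these data known, so it is not independent of them.

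The libraries held poly-A RNA from the cortex of 16 mice, all 9 months old, with 4 mice (2 females and 2 males) of each genotype. The genotypes were 5xFAD, Dp16, both together (5xFAD-Dp16) and neither (wild-type, strain C57BL/6J). In Dp16 mice a stretch of chromosome 16 that matches part of human chromosome 21 is duplicated, and 5xFAD mice carry mutant human transgenes of familial Alzheimer's disease driven by the neuronal Thy1 promoter; 5xFAD-Dp16 mice carry both. Below, 5xFAD and 5xFAD-Dp16 libraries are called transgenic. The labels give no treatment and do not say whether animals were littermates. Between 16874481 and 22912168 reads per library were counted in genes. Levels are given as CPM (counts scaled to a common library size) after trimmed-mean normalization, in the order of replicates 1 to 4. Wild-type replicate 3 stood apart by the dependence of its counts on transcript length: the slope of its log2 CPM deviations on log2 exon length was -0.4389, the lowest of 16 (the others lay between -0.1808 and 0.281). Values without this library are given beside some results, not for every gene in which it lay apart. For 19 of the 43 genes another annotated gene overlaps, and since no source used here gives the strand setting of the counting, reads of such a pair cannot be told apart; of the genes called below these are Ctss, Ctsc, Ctsz, Ctsd, Grn, Ctsa, Ctsl and Hexa. Replicates 1 and 3 were females in wild-type and 5xFAD mice, replicates 2 and 3 in Dp16 mice, and replicates 1 and 4 in 5xFAD-Dp16 mice.

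The lysosome is the acidic organelle in which cells break down protein, glycans, glycolipids and sphingolipids. A membrane proton pump keeps it acidic, soluble hydrolases work in its lumen, and heavily glycosylated membrane proteins line it. In brain, microglia take up extracellular material such as amyloid and degrade it in lysosomes, and inherited loss of many of these hydrolases gives neuronal storage disease. Tfeb is a transcription factor that binds an extended E-box, TCACGTGA, in promoters of lysosomal genes, and PU.1 is the main lineage factor of macrophages and binds sites with the core GAGGAAGT.

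These motifs were looked for in promoter windows from RefSeq (build GRCm38.p6, 250 bases before to 50 after each start site, both strands), since the members separate into those that moved and those that did not. Windows were matched for 39 of the 43 genes (not Asah1, Ctsb, Ctsh and Npc1). TCACGTGA was in a window of 7 of 39 members (17.9%), against 1.94% of the genes tested with a window and 1.12% of all RefSeq genes with one. The shorter CACGTG, which every TCACGTGA contains, was in 16 of 39 (41%), against 11.1% of the tested genes and 8.09% of all. GAGGAAGT was in 4 of 39 (10.3%: Ctsc, Ctss, Gla and Gusb), against 3.4% and 3.69%. The stretches below show the motif in capitals, read along the gene's strand, for genes described in the next paragraphs. The first 3 have TCACGTGA in members whose level did not pass the test, the next 2 have it in members that rose, and the last has ACTTCCTC, the reverse complement of GAGGAAGT, in a member that rose. Stretches near an annotated exon were shortened.
Atp6v1a (chr16:44139354-44139421, minus strand): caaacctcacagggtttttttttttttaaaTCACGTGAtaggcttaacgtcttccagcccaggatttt
Mcoln1 (chr8:3500462-3500491, plus strand): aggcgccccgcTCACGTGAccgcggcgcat
Gla (chrX:134601182-134601211, minus strand): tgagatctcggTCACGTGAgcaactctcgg
Ctsd (chr7:142387908-142387937, minus strand): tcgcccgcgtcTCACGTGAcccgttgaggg
Ctsa (chr2:164833749-164833772, plus strand): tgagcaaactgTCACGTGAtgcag
Ctsc (chr7:88277904-88277971, plus strand): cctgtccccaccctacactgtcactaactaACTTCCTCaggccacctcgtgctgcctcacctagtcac

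The question of the first comparisons is what the 5xFAD transgenes did to these genes, without Dp16 (5xFAD against wild-type) and with it (5xFAD-Dp16 against Dp16), and, pooled, in 8 transgenic libraries against 8 others. In the pooled comparison 15 of the 43 genes rose and none fell at an adjusted p under 0.05: all 8 myeloid-enriched genes and 7 of the 35 others (Gusb, Naglu, Man2b1, Hexa, Ctsl, Ctsa and Npc2). Across all 17555 genes tested, 2.18% were called higher there. The median log2 fold change was 1.40 over the myeloid-enriched genes, 0.20 over the others and -0.02 over all genes tested. Called means an adjusted p under 0.05 in edgeR's quasi-likelihood test with sex as a covariate, Benjamini-Hochberg adjustment running over all genes tested.

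In 5xFAD against wild-type cortex 12 of 43 were called higher and none lower, against 1.5% of all genes called higher. They were 7 of the 8 myeloid-enriched genes (not Grn) and Gusb, Hexa, Naglu, Ctsl and Ctsa. In 5xFAD-Dp16 against Dp16 cortex 3 of 43 were called higher (Cd68, Ctss and Ctsd) and none lower, against 0.387% of all genes. These 2 comparisons have no library in common. The median log2 fold change was 1.64 over the myeloid-enriched genes, 0.21 over the others and -0.05 over all genes tested in the first, and 1.19, 0.19 and 0.01 in the second. The share of all genes with every 5xFAD library above every wild-type library was 3.67%, and 18 of the 43 members showed this, among them all 8 myeloid-enriched genes. Every 5xFAD-Dp16 library was above every Dp16 library for 10 members, 5 of them myeloid-enriched, against 2.21% of all genes. For 9 members (Cd68, Ctss, Ctsd, Ctsz, Ctsc, Hexa, Ctsa, Naglu and Lamp1) all 8 transgenic libraries were above all 8 others, against 0.827% of all genes.

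**Figure D1:**
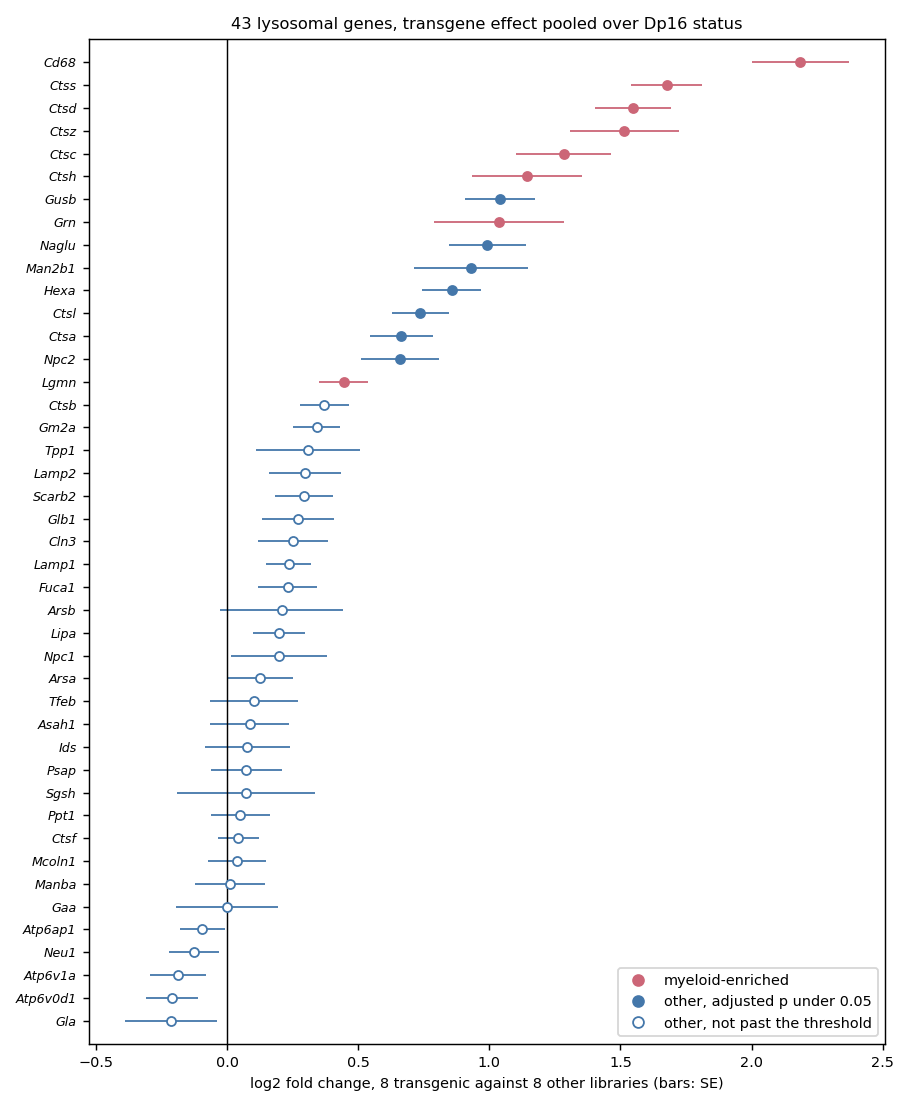
Log2 fold change of the 43 lysosomal genes in 8 transgenic against 8 other libraries (x axis; bars are SE), sorted, with myeloid-enriched genes in red, other genes in blue and open points for genes not past the threshold. The 15 filled points run from Lgmn at 0.44 to Cd68 at 2.19, and the 6 genes left of 0 are all open.

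The counts called moved with some settings. With the transcript-length slope of each library as a covariate (described above), 21 members were called higher in 5xFAD against wild-type, against 3.99% of all genes. With only the 2 groups compared in the fit, 6 were (Ctss, Ctsd, Cd68, Ctsc, Hexa and Gusb), against 0.698% of all genes. Without wild-type replicate 3, 19 members were called in the pooled comparison (Ctsb, Gm2a, Lamp2 and Fuca1, an alpha-fucosidase, joined), against 2.52% of all genes, and 15 in 5xFAD against wild-type (Npc2, Ctsb and Fuca1 joined), against 1.6%. Without that library 6 members were called in 5xFAD-Dp16 against Dp16 (Ctsz, Ctsc and Naglu joined), against 0.71% of all genes.

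Markers of microglia and macrophages moved with these genes. All 15 markers of the list were called higher in the pooled comparison (median log2 fold change 1.26, from 0.68 to 1.98), 12 of them in 5xFAD against wild-type (median 1.57) and 6 in 5xFAD-Dp16 against Dp16 (median 0.96). Among these markers, the complement subunit C1qa was at 1.59 (SE 0.12), the growth factor receptor Csf1r at 1.03 (SE 0.25) and the purinergic receptor P2ry12 at 0.72 (SE 0.15), pooled. The summed level of the 15 was 725, 682, 948 and 810.2 CPM in wild-type mice and 658, 701, 718 and 779 CPM in Dp16 mice. In 5xFAD mice it was 2426, 2212, 2948 and 2094 CPM, and in 5xFAD-Dp16 mice 2137, 1367, 1053 and 1777 CPM. The 8 myeloid-enriched lysosomal genes summed to 726, 701.5, 848 and 746 CPM in wild-type, 776, 792, 723 and 796 in Dp16, 2690, 2138, 2925 and 1797 in 5xFAD and 2462, 1431, 1173 and 1839 in 5xFAD-Dp16 mice. Both sums placed all transgenic libraries above all others, with 5xFAD replicate 3 highest and 5xFAD-Dp16 replicate 3 lowest among the transgenic libraries. The part of the marker change in the lysosomal result was not tested, and in cortex RNA more microglia and more RNA per microglial cell cannot be told apart. Of the other marker lists, 5 border macrophage markers summed to between 3.72 and 8.12 CPM, and 5 neutrophil markers to between 0.429 and 4.73 CPM with Ngp, Camp and Ltf at 0 in some libraries. Summed neuronal markers were between 8455 and 10430 CPM in wild-type, 7942 and 10490 in Dp16, 6852 and 7412 in 5xFAD and 6989 and 8820 in 5xFAD-Dp16 mice. Summed astrocyte markers were between 4818 and 6600, 5038 and 5674, 6061 and 8176, and 5531 and 6318 CPM in the same order of groups. Oligodendrocyte, endothelial and choroid plexus lists had pooled medians of 0.19, 0.29 and 0.55 with no gene called, and choroid plexus markers varied from 20.3 to 2291 CPM between libraries. The 35 other lysosomal genes summed to between 5320 and 5666 CPM in wild-type, 5138 and 5900 in Dp16, 5995 and 6747 in 5xFAD and 5807 and 6653 in 5xFAD-Dp16 mice.

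**Figure D2:**
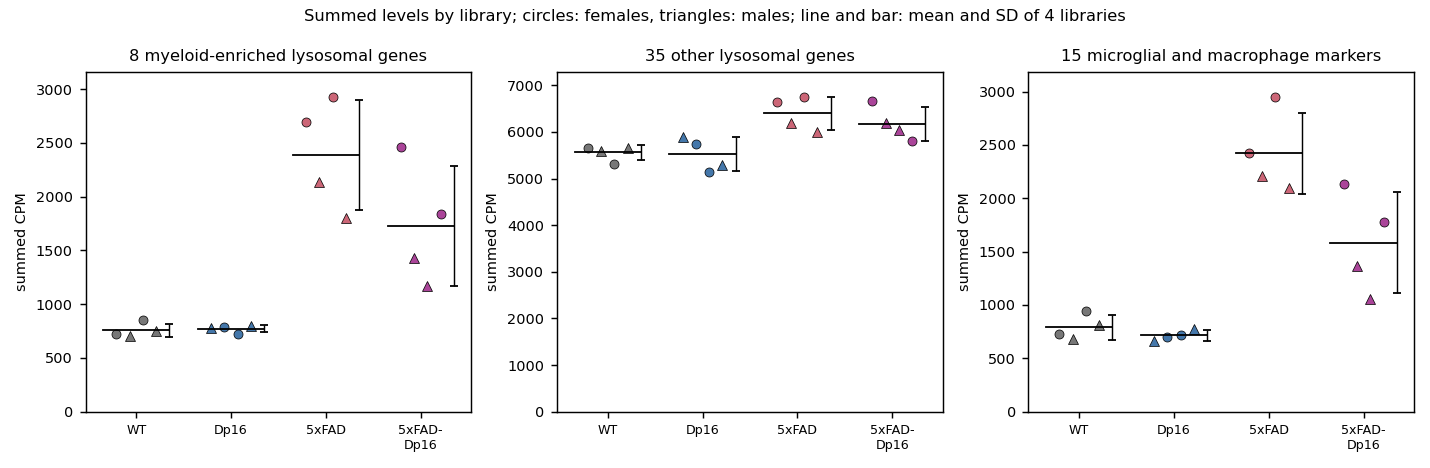
Summed CPM in each library (y axis, from 0) of the 8 myeloid-enriched lysosomal genes, the 35 other lysosomal genes and 15 microglial and macrophage markers, by genotype group (x axis); circles are females, triangles males, lines and bars the mean and SD of 4 libraries. In the left panel the transgenic libraries lie between 1173 and 2925 CPM and the others between 701.5 and 848 CPM, and in the middle panel transgenic libraries lie between 5807 and 6747 CPM and the others between 5138 and 5900 CPM.

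Cd68 (chr11:69664213-69666153, minus strand, GRCm38), a heavily glycosylated membrane protein of late endosomes and lysosomes in macrophages, changed most. Its level was 13.4, 11.4, 10.99 and 12.2 CPM in wild-type and 15.01, 13.7, 13.3 and 11.6 CPM in Dp16 mice. In 5xFAD mice it was 101, 68.1, 89.2 and 45.04 CPM, and in 5xFAD-Dp16 mice 84.3, 34.4, 26.2 and 50.5 CPM. The lowest transgenic library, 5xFAD-Dp16 replicate 3, lay above the highest of the other 8. As a log2 fold change the difference was 2.60 (SE 0.26, adjusted p 9e-05 by edgeR) in 5xFAD against wild-type, a 6.07-fold level. It was 1.77 (SE 0.26, adjusted p 0.005 by edgeR) in 5xFAD-Dp16 against Dp16.

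Ctss (chr3:95526786-95556403, plus strand) encodes cathepsin S, a cysteine protease that stays active at neutral pH and trims the invariant chain of MHC class II. Its level was 126, 117, 143.5 and 129 CPM in wild-type, 129, 127, 117 and 148.5 CPM in Dp16, 513, 419, 572 and 460.2 CPM in 5xFAD and 509.8, 288.5, 226 and 427 CPM in 5xFAD-Dp16 mice. Transgenic and other libraries did not overlap. Fitted over all libraries, the log2 fold change was 1.93 (SE 0.19, adjusted p 9e-05 by edgeR) without Dp16 and 1.43 (SE 0.19, adjusted p 0.0032) with it.

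Ctsd (chr7:142375911-142388038, minus strand) encodes cathepsin D, the main aspartic protease of the lysosome, and had the highest CPM of the myeloid-enriched genes. Its level was 314, 332, 433 and 320.2 CPM in wild-type, 351, 355, 328 and 384 CPM in Dp16, 1436, 1174, 1615 and 838 CPM in 5xFAD and 1291, 755, 579.7 and 899 CPM in 5xFAD-Dp16 mice. Wild-type replicate 3 was highest of the 8 libraries without transgenes and still below every transgenic library. The fitted log2 difference was 1.83 (SE 0.21, adjusted p 0.00024 by edgeR) without Dp16 and 1.26 (SE 0.20, adjusted p 0.0095) with it. The second call was lost in the fits without Dp16 replicate 2 and without Dp16 replicate 3. Per length, Ctsd stood at rank 5 of the 43 genes in wild-type mice (159 ± 11.1 RPKM, SD, n = 4) and at rank 1 in 5xFAD mice (600 ± 159 RPKM), where Psap was at rank 2 with 426 ± 45.1 RPKM. Psap had 408 ± 120 RPKM and rank 1 in wild-type mice, a spread wider than its distance from 5xFAD mice. Ctss stood at rank 8 with 92.01 ± 4.07 RPKM in wild-type and at rank 3 with 365 ± 50.9 RPKM in 5xFAD mice. Ctsc and the sulfatase Sgsh were the lowest of the 43 in wild-type mice, at 1.44 ± 0.383 and 1.24 ± 0.676 RPKM, which do not differ beyond their spread.

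Ctsz encodes cathepsin Z, a carboxypeptidase. Its level was 49.1, 39.2, 23.2 and 50.04 CPM in wild-type, 55.01, 46.6, 40.04 and 33.4 CPM in Dp16, 200, 116.5, 183 and 92.1 CPM in 5xFAD and 156, 71.2, 81.2 and 116 CPM in 5xFAD-Dp16 mice, with no overlap between transgenic and other libraries. Its log2 fold change was 1.80 (SE 0.29, adjusted p 0.0035 by edgeR) without Dp16. With Dp16 it was 1.23 (SE 0.29, adjusted p 0.12), which did not pass the threshold.

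Ctsc encodes cathepsin C, a dipeptidyl peptidase that activates serine proteases of immune cells, and its promoter stretch with the PU.1 core is printed above. Its level was 9.58, 5.27, 7.67 and 8.88 CPM in wild-type, 8.18, 5.59, 9.97 and 6.74 CPM in Dp16, 21.8, 15.8, 25.8 and 20.3 CPM in 5xFAD and 28.3, 10.2, 12.1 and 21.7 CPM in 5xFAD-Dp16 mice. The lowest transgenic library, 5xFAD-Dp16 replicate 2, was just above the highest of the others, Dp16 replicate 3. As a log2 fold change the difference was 1.41 (SE 0.26, adjusted p 0.0081 by edgeR) without Dp16 and 1.16 (SE 0.26, adjusted p 0.083, not past the threshold) with it.

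Ctsh encodes cathepsin H, an aminopeptidase. Its level was 18.98, 22.4, 50.5 and 21.4 CPM in wild-type, 19.04, 26.8, 44.01 and 34.2 CPM in Dp16, 65.1, 86.2, 80.2 and 69.6 CPM in 5xFAD and 81.6, 45.8, 33.8 and 62.3 CPM in 5xFAD-Dp16 mice. All 5xFAD libraries were above all wild-type libraries, while 5xFAD-Dp16 replicate 3 lay among the Dp16 libraries. Fitted over all libraries, the log2 fold change was 1.47 (SE 0.30, adjusted p 0.019 by edgeR) without Dp16 and 0.82 (SE 0.30, adjusted p 0.72) with it. The first call was lost in the fits without wild-type replicate 1, 2 or 4 and without 5xFAD replicate 2 or 4.

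Grn encodes progranulin, which lysosomal proteases cut into granulins. Its level was 43.5, 25.8, 12.7 and 39.4 CPM in wild-type, 35.9, 29.6, 20.3 and 17.5 CPM in Dp16, 102, 47.1, 87.8 and 53.2 CPM in 5xFAD and 63.9, 33.6, 45.6 and 50.1 CPM in 5xFAD-Dp16 mice. Wild-type replicate 3 was lowest of all libraries, and wild-type replicate 1 lay above 5xFAD-Dp16 replicate 2. In 5xFAD against wild-type the log2 fold change was 1.20 (SE 0.35, adjusted p 0.16 by edgeR), not past the threshold, and 1.04 (SE 0.25, adjusted p 0.039) in the pooled comparison. In 5xFAD against wild-type 4 of 26 alternatives called Grn, DESeq2 (adjusted p 0.0298) among them. The pooled call held in 15 of 25 alternatives and was lost without 5xFAD replicate 1, 3 or 4, without 5xFAD-Dp16 replicate 1, 3 or 4, without Dp16 replicate 2, 3 or 4 and without wild-type replicate 2.

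Lgmn encodes legumain, the asparaginyl endopeptidase that processes several cathepsins, and changed least of the myeloid-enriched genes. Its level was 152, 148.5, 166 and 165 CPM in wild-type, 162, 188, 151 and 159.9 CPM in Dp16, 251, 212, 272 and 218 CPM in 5xFAD and 247, 193, 168.5 and 212 CPM in 5xFAD-Dp16 mice. The 5xFAD libraries were above the wild-type libraries, and 5xFAD-Dp16 replicate 3 was below Dp16 replicate 2. The fitted log2 difference was 0.58 (SE 0.13, adjusted p 0.034 by edgeR) without Dp16, a call that held in 15 of 26 alternatives. The libraries without which it was lost were any of 5xFAD, 5xFAD-Dp16 replicate 3, Dp16 replicate 1 and wild-type replicates 1 and 2. The difference was 0.30 (SE 0.13, adjusted p 0.98) with Dp16.

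**Figure D3:**
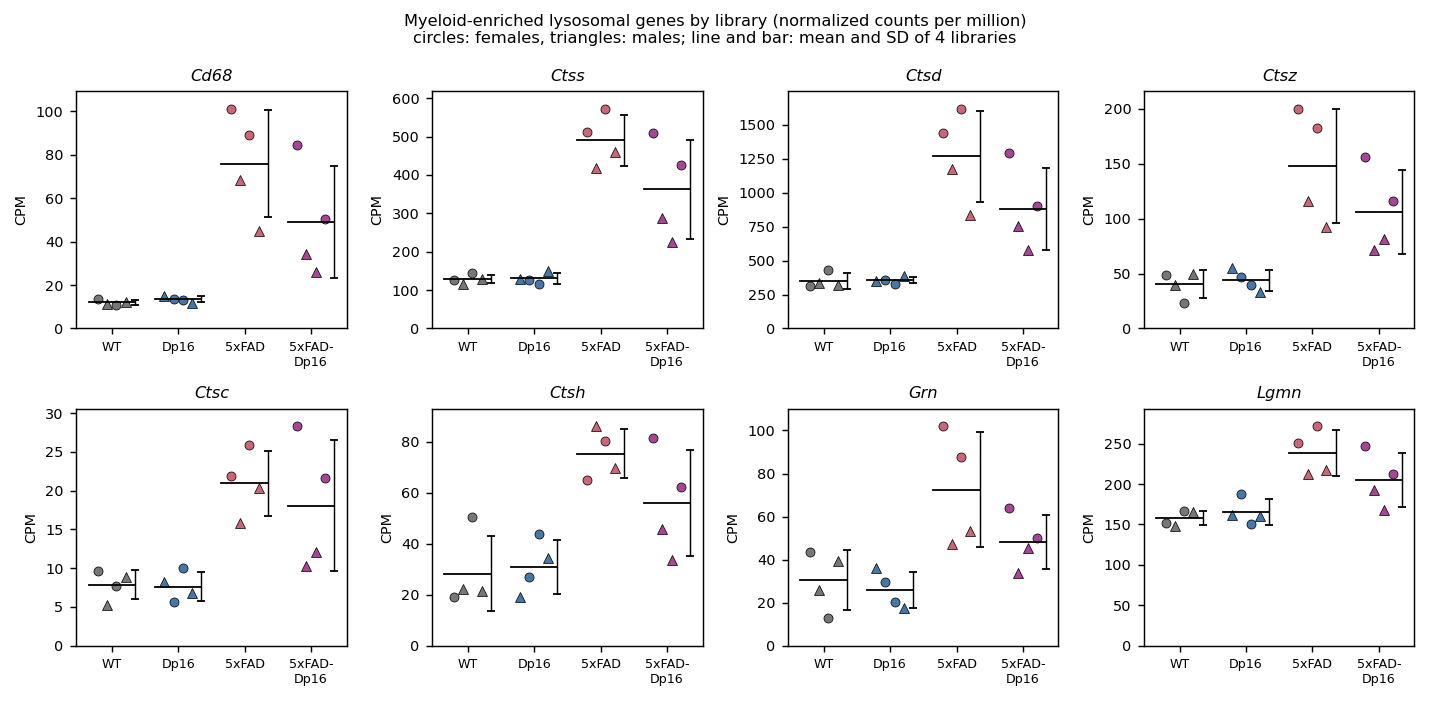
Normalized CPM of the 8 myeloid-enriched lysosomal genes in each library (y axes, from 0) by genotype group (x axes); circles are females, triangles males, lines and bars the mean and SD of 4 libraries. Cd68, Ctss, Ctsd, Ctsz and Ctsc show no overlap between transgenic and other libraries, and in Ctsh, Grn and Lgmn some 5xFAD-Dp16 libraries lie among the others.

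Among the 35 other genes, 4 glycosidases were called in the pooled comparison. Gusb encodes beta-glucuronidase, which acts on glycosaminoglycans. Its level was 13.99, 14.3, 19.7 and 14.9 CPM in wild-type, 14.9, 15.5, 21.4 and 20 CPM in Dp16, 51.6, 41.1, 55.7 and 29.8 CPM in 5xFAD and 38.3, 23.8, 21.2 and 27.7 CPM in 5xFAD-Dp16 mice. All 5xFAD libraries were above all wild-type and Dp16 libraries, while 5xFAD-Dp16 replicate 3 lay just below Dp16 replicate 3. Its log2 fold change was 1.48 (SE 0.19, adjusted p 0.00059 by edgeR) without Dp16 and 0.60 (SE 0.19, adjusted p 0.42) with it.

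Hexa encodes the alpha subunit of beta-hexosaminidase, the enzyme that degrades GM2 ganglioside. Its level was 63.8, 75.2, 82.5 and 62.02 CPM in wild-type, 79.7, 78.5, 84.9 and 83.2 CPM in Dp16, 167, 146, 179 and 118 CPM in 5xFAD and 166, 121, 94.7 and 125 CPM in 5xFAD-Dp16 mice, with no overlap between transgenic and other libraries. As a log2 fold change the difference was 1.09 (SE 0.16, adjusted p 0.0013 by edgeR) without Dp16 and 0.62 (SE 0.16, adjusted p 0.17) with it.

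Naglu encodes an N-acetylglucosaminidase of heparan sulfate breakdown. Its level was 11.5, 6.25, 5.37 and 8.97 CPM in wild-type, 8.58, 8.43, 9.92 and 7.34 CPM in Dp16, 20.1, 15.4, 23.5 and 14.7 CPM in 5xFAD and 16.6, 15.3, 12.4 and 15.7 CPM in 5xFAD-Dp16 mice. Every transgenic library was above every other one. Fitted over all libraries, the log2 fold change was 1.18 (SE 0.21, adjusted p 0.0065 by edgeR) without Dp16 and 0.81 (SE 0.21, adjusted p 0.18) with it.

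Man2b1 encodes the lysosomal alpha-mannosidase. Its level was 36.4, 31.9, 16.2 and 38.2 CPM in wild-type, 37.99, 32.3, 22.7 and 22.3 CPM in Dp16, 92.9, 49.8, 82.98 and 52.9 CPM in 5xFAD and 71.8, 30.03, 44.2 and 49.3 CPM in 5xFAD-Dp16 mice. All 5xFAD libraries were above all wild-type libraries, and 5xFAD-Dp16 replicate 2 lay among the Dp16 libraries. The fitted log2 difference was 0.93 (SE 0.22, adjusted p 0.033 by edgeR) in the pooled comparison, a call that held in 15 of 25 alternatives. It was lost without 5xFAD replicate 1 or 3, without 5xFAD-Dp16 replicate 1, 3 or 4, without Dp16 replicate 2, 3 or 4 and without wild-type replicate 1 or 2. In 5xFAD against wild-type it was 1.14 (SE 0.31, adjusted p 0.11 by edgeR), and it did not pass. There 4 of 26 alternatives called Man2b1, DESeq2 (adjusted p 0.0145) among them.

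Ctsl and Ctsa are proteases outside the myeloid-enriched list. Ctsl encodes cathepsin L, a cysteine endopeptidase that most cells make. Its level was 92.4, 98.8, 133 and 114 CPM in wild-type, 108, 120.4, 139 and 129.6 CPM in Dp16, 209, 200.3, 257 and 192 CPM in 5xFAD and 208, 173.5, 136 and 196 CPM in 5xFAD-Dp16 mice. The 5xFAD libraries were above all wild-type and Dp16 libraries, and 5xFAD-Dp16 replicate 3 was below Dp16 replicate 3. Its log2 fold change was 0.96 (SE 0.15, adjusted p 0.0025 by edgeR) without Dp16 and 0.51 (SE 0.15, adjusted p 0.32) with it.

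Ctsa encodes protective protein, a serine carboxypeptidase that stabilizes neuraminidase and beta-galactosidase. Its level was 101, 90.9, 80.9 and 101 CPM in wild-type, 115, 120.4, 82.2 and 91.95 CPM in Dp16, 192.5, 151, 184 and 131.5 CPM in 5xFAD and 189, 122, 133 and 149 CPM in 5xFAD-Dp16 mice. Every transgenic library was above every other one, with Dp16 replicate 2 close below 5xFAD-Dp16 replicate 2. As a log2 fold change the difference was 0.80 (SE 0.17, adjusted p 0.023 by edgeR) without Dp16 and 0.52 (SE 0.17, adjusted p 0.48) with it. The first call was lost in the fits without 5xFAD replicate 1 or 3 and without wild-type replicate 1 or 2. Neu1, the neuraminidase that Ctsa protects, was uncalled at -0.13 (SE 0.10) in the pooled comparison, and Glb1, the beta-galactosidase, at 0.27 (SE 0.14).

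Npc2, the soluble cholesterol carrier of the lysosomal lumen, had 80.3, 93.8, 169.5 and 95.6 CPM in wild-type, 98.4, 106, 133 and 132.5 CPM in Dp16, 182, 205, 207 and 199 CPM in 5xFAD and 178, 171, 114 and 182 CPM in 5xFAD-Dp16 mice. Wild-type replicate 3 was high and 5xFAD-Dp16 replicate 3 low in their groups. Fitted over all libraries, the log2 fold change was 0.66 (SE 0.15, adjusted p 0.026 by edgeR) in the pooled comparison, a call that held in 15 of 25 alternatives. It was lost without wild-type replicate 2 or 4, without Dp16 replicate 1 or 2, without 5xFAD replicate 2, 3 or 4 and without 5xFAD-Dp16 replicate 1, 2 or 4. In 5xFAD against wild-type it was 0.87 (SE 0.21, adjusted p 0.059), not past the threshold, though 7 of 26 alternatives called it, DESeq2 (adjusted p 0.00824) among them. Without wild-type replicate 3 it was 1.13 (SE 0.17, adjusted p 0.00124 by edgeR). Npc1, the membrane protein that takes cholesterol from Npc2, was at 0.20 (SE 0.18) in the pooled comparison.

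**Figure D4:**
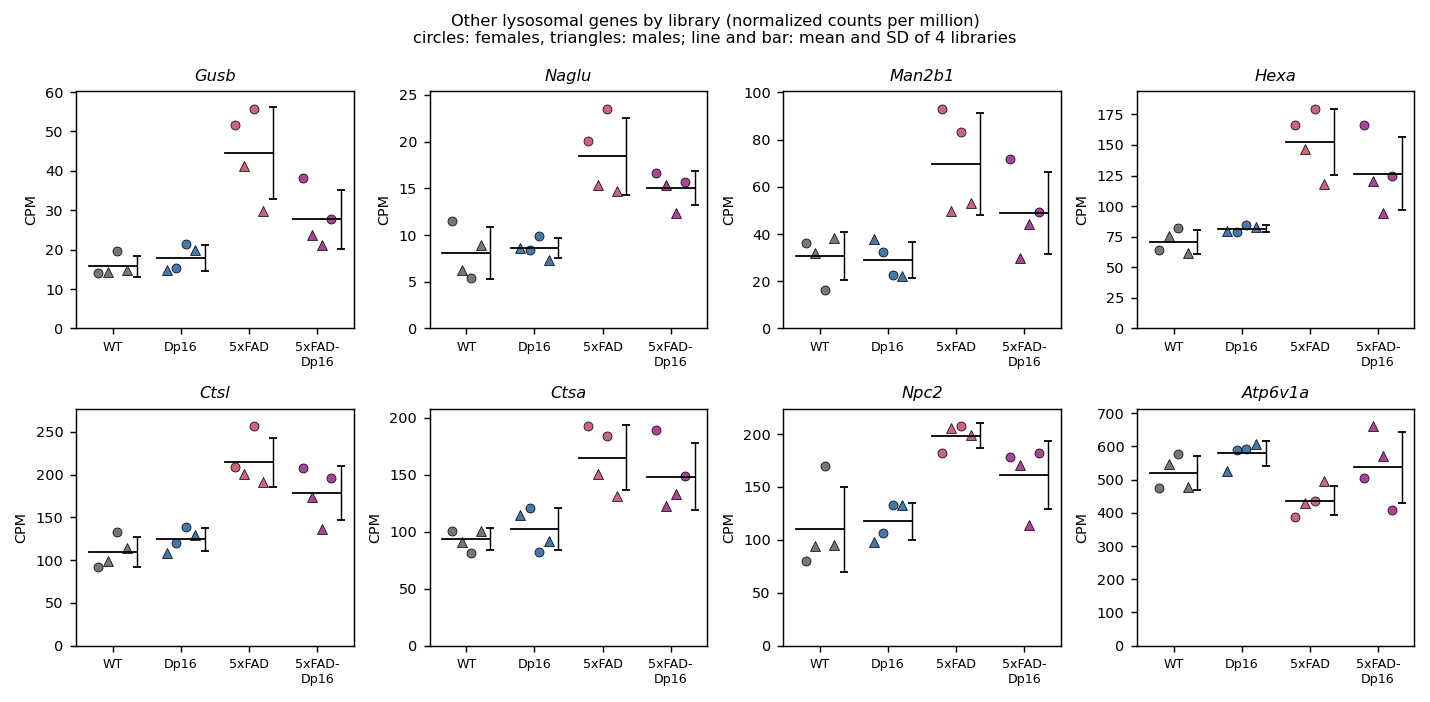
Normalized CPM, in each library (y axes, from 0) and by genotype group (x axes), of the 7 genes outside the myeloid-enriched list that rose in the pooled comparison, and of the proton pump subunit Atp6v1a; circles are females, triangles males, lines and bars the mean and SD of 4 libraries. Hexa, Naglu and Ctsa show no overlap between transgenic and other libraries, and the groups of Atp6v1a overlap.

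The remaining 28 genes were uncalled in the pooled comparison, with log2 fold changes from -0.21 (Gla) to 0.37 (Ctsb). Of the 10 glycosidases 4 were called, and the others lay between -0.21 and 0.27. Of the 4 lipid-degrading or lipid-carrying proteins only Npc2 was called, and the other 3 (Lipa, acid lipase; Asah1, acid ceramidase; Ppt1, a thioesterase of fatty-acylated proteins) were at 0.20, 0.09 and 0.05. Of the 4 sulfatases (Arsa, Arsb, Sgsh and Ids), which remove sulfate from sulfatide and glycosaminoglycans, none was called, and they lay between 0.07 and 0.21. The activator proteins Psap and Gm2a, which present glycolipids to hydrolases, were at 0.07 (SE 0.14) and 0.34 (SE 0.09, adjusted p 0.061 by edgeR). Cathepsin B, Ctsb, came closest to the threshold at 0.37 (SE 0.09, adjusted p 0.055 by edgeR), while cathepsin F, Ctsf, was at 0.04 (SE 0.08). Tpp1, a tripeptidyl peptidase, was at 0.31 (SE 0.20).

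Of the 7 membrane proteins, Cd68 was called and 6 were not: Lamp2, Scarb2, Cln3, Lamp1, Npc1 and Mcoln1, in falling order. Lamp1 and Lamp2 are the major glycoproteins of the lysosomal membrane. Lamp1 had 410, 422.5, 435 and 413 CPM in wild-type, 434, 427, 373 and 398 CPM in Dp16, 539, 499, 539 and 457 CPM in 5xFAD and 499.6, 473, 455 and 440.4 CPM in 5xFAD-Dp16 mice. Every transgenic library was above every other one, yet the log2 fold change of 0.23 (SE 0.08, adjusted p 0.31 by edgeR) in the pooled comparison did not pass. Lamp1 was called in 2 of 25 alternatives, by DESeq2 (0.22, SE 0.06, adjusted p 0.00893) and in edgeR with the length slope (0.23, SE 0.06, adjusted p 0.0131). Lamp2 had 98.8, 104, 183 and 106 CPM in wild-type, 92.6, 107, 141 and 137 CPM in Dp16, 145, 149.5, 172 and 159 CPM in 5xFAD and 142, 152, 114 and 153.5 CPM in 5xFAD-Dp16 mice. Wild-type replicate 3 was the highest Lamp2 value of all 16, and the pooled log2 fold change was 0.30 (SE 0.14, adjusted p 0.58 by edgeR), not past the threshold. Without that library it was 0.41 (SE 0.11, adjusted p 0.0475 by edgeR), which passed, as it did in 3 of 25 alternatives, among them the length slope as a covariate (0.39, SE 0.06, adjusted p 0.000238). Mcoln1, the lysosomal calcium channel whose promoter stretch is printed above, was at 0.04 (SE 0.11).

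Tfeb, the transcription factor of lysosomal biogenesis, had 9.11, 9.10, 8.75 and 11.6 CPM in wild-type, 8.58, 10.2, 5.06 and 7.02 CPM in Dp16, 12, 6.46, 11.6 and 8.08 CPM in 5xFAD and 11.9, 7.92, 7.56 and 9.99 CPM in 5xFAD-Dp16 mice. All 4 groups overlapped, and the pooled log2 fold change was 0.10 (SE 0.17, adjusted p 0.9 by edgeR). Its motif TCACGTGA was in a window of 2 of the 14 called members with one (14.3%: Ctsd and Ctsa) and of 5 of the 25 uncalled members (20%: Atp6v0d1, Atp6v1a, Cln3, Gla and Mcoln1). The PU.1 core was in 3 of 14 (21.4%: Ctsc, Ctss and Gusb) and 1 of 25 (4%: Gla). These are counts of letters in 39 promoters, with no test.

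The 4 lowest genes in the pooled comparison were Gla, Atp6v0d1, Atp6v1a and Neu1, and none was called. Without wild-type replicate 3 Gla left this group, at -0.05 (SE 0.13) pooled and 0.12 (SE 0.19) in 5xFAD against wild-type, where it had been -0.22 (SE 0.25). Gla, alpha-galactosidase A, had 16.5, 23.5, 38.8 and 18.4 CPM in wild-type, 21.2, 27.3, 29.9 and 29.1 CPM in Dp16, 15.9, 24.5, 20.8 and 21.9 CPM in 5xFAD and 23.1, 29.5, 19.9 and 20.6 CPM in 5xFAD-Dp16 mice. Its groups overlapped, and the log2 fold change was -0.21 (SE 0.17, adjusted p 0.75 by edgeR). Neu1 had 61.3, 70.4, 77.9 and 60.6 CPM in wild-type, 63.9, 75.99, 67.6 and 65.8 CPM in Dp16, 59.2, 70.02, 50.6 and 60.4 CPM in 5xFAD and 70.4, 67.8, 61.2 and 58.4 CPM in 5xFAD-Dp16 mice, again with overlap.

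The 3 proton pump genes all lay below 0 in the pooled comparison. Atp6v0d1, a membrane-sector subunit, had 252.5, 295, 334 and 265 CPM in wild-type, 282, 316, 278 and 284 CPM in Dp16, 226, 252, 220.3 and 243.5 CPM in 5xFAD and 267, 305, 273 and 215 CPM in 5xFAD-Dp16 mice. Every 5xFAD library was below every wild-type library, but only just, with 251.9 CPM in 5xFAD replicate 2 and 252.5 CPM in wild-type replicate 1. The share of all genes with this pattern is not given here. The log2 fold change of -0.29 (SE 0.14, adjusted p 0.73 by edgeR) in 5xFAD against wild-type did not pass, and it was -0.18 (SE 0.12) without wild-type replicate 3. Atp6v1a, the catalytic subunit, had 476, 548, 577 and 479 CPM in wild-type, 525, 590.5, 592 and 609 CPM in Dp16, 388, 429, 435 and 495 CPM in 5xFAD and 506, 661, 572 and 408 CPM in 5xFAD-Dp16 mice. Its pooled log2 fold change was -0.19 (SE 0.11, adjusted p 0.68 by edgeR), and that of the accessory subunit Atp6ap1 was -0.09 (SE 0.09). Atp6v1a is the only member on chromosome 16, and it lies outside the segment from Lipi to Zbtb21 (chr16:75540514-97962622, GRCm38) that Dp16 mice carry in extra copy.

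In Dp16 against wild-type cortex none of the 43 genes was called by edgeR, none had an unadjusted p under 0.05, and DESeq2 and limma called none. Across all genes 0.0057% were called and 2.2% had an unadjusted p under 0.05. The largest differences were -0.36 (SE 0.26) for Npc1 and -0.33 (SE 0.24) for Tfeb, and the highest value above 0 was 0.21 (SE 0.16) for Hexa. Among the myeloid-enriched genes the differences ran from -0.24 (Grn, SE 0.35) to 0.16 (Cd68, SE 0.25). These differences were not detectable at this depth and number of mice, which does not show that the levels were equal.

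The next comparison was of 5xFAD-Dp16 with 5xFAD cortex, both of which carry the transgenes. All 8 myeloid-enriched genes were lower in 5xFAD-Dp16, with log2 fold changes from -0.67 (Cd68, SE 0.25) to -0.22 (Lgmn, SE 0.13), but none of the 43 genes was called by edgeR, DESeq2 or limma. By edgeR 4 had an unadjusted p under 0.05: Gusb at -0.68 (SE 0.19), Cd68, Ctsd at -0.53 (SE 0.20) and Ctss at -0.46 (SE 0.19). Across all genes 0.0057% were called and 3.59% had an unadjusted p under 0.05. With the length slope as a covariate 2 members were called lower, Gusb at -0.68 (SE 0.15) and Grn at -0.57 (SE 0.11), against 0.285% of all genes. No member had every 5xFAD-Dp16 library below every 5xFAD library, a pattern that 1.48% of all genes showed. For Cd68, 5xFAD-Dp16 replicates 1 and 4 lay within the 5xFAD range of 45.04 to 101 CPM, and replicates 2 and 3 lay below it. The 15 microglial and macrophage markers were also all lower in 5xFAD-Dp16, with a median log2 fold change of -0.54 and none called, and their part in the difference was not tested. The 8 myeloid-enriched genes were measured in the same mice, so their shared direction is not 8 separate observations. The share of all genes that were lower is not given here.

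The interaction, the transgene effect with Dp16 minus that without, was below 0 for all 8 myeloid-enriched genes and called for no member by edgeR, DESeq2 or limma. Again the 8 genes share the same mice and are not 8 separate observations, and the share of all genes below 0 is not given here. By edgeR 3 members had an unadjusted p under 0.05: Gusb at -0.88 (SE 0.27), Cd68 at -0.83 (SE 0.35) and Hexa at -0.48 (SE 0.22). Across all genes 0% were called and 1.36% had an unadjusted p under 0.05. For the 9 genes called without Dp16 and not with it, Gusb and Hexa among them, a difference between the backgrounds is thus not shown.

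**Figure D5:**
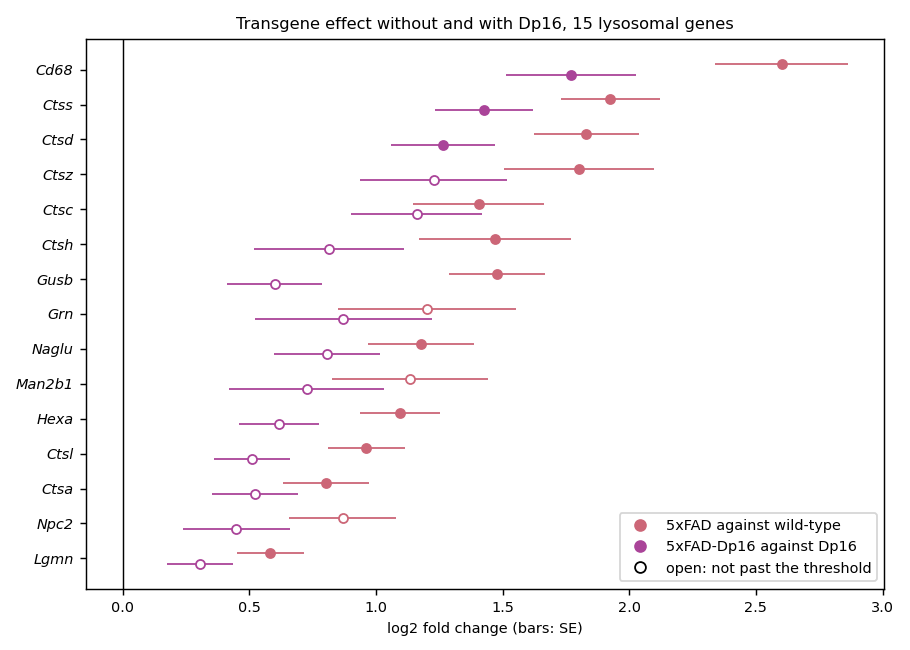
Log2 fold change (x axis; bars are SE) of the 15 genes called in the pooled comparison, for 5xFAD against wild-type and for 5xFAD-Dp16 against Dp16, which share no library; open points did not pass the threshold. For each of the 15 genes the point with Dp16 lies left of the point without it, and no interaction was called.

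Setting 5xFAD-Dp16 against wild-type, which shares libraries with the comparisons above, 4 members were called higher (Cd68 at 1.93, Ctss at 1.46, Ctsd at 1.30 and Hexa at 0.82) and none lower, against 0.496% of all genes. The call of Hexa was lost in the fits without wild-type replicate 1, 2 or 4 and without 5xFAD-Dp16 replicate 1, 2 or 4. Without wild-type replicate 3, 7 members were called, against 0.587% of all genes, and with only the 2 groups in the fit none was, against 0.055%. Side by side, Cd68 was at 2.60 in 5xFAD and 1.93 in 5xFAD-Dp16 mice against the same wild-type mice, Ctsd at 1.83 and 1.30, and Gusb at 1.48 and 0.80.

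Females stood above males among transgenic mice for many of these genes. Both females were above both males in 5xFAD and again in 5xFAD-Dp16 mice for 18 of the 43 members, 7 of them myeloid-enriched (all but Ctsh), against 5.89% of all genes. Cd68 was at 101 and 89.2 CPM in 5xFAD females and 68.1 and 45.04 CPM in males, and at 84.3 and 50.5 CPM in 5xFAD-Dp16 females and 34.4 and 26.2 CPM in males. Ctsz was at 200 and 183 CPM in 5xFAD females and 116.5 and 92.1 CPM in males, and at 156 and 116 CPM in 5xFAD-Dp16 females and 81.2 and 71.2 CPM in males. The summed microglial and macrophage markers also placed both females above both males in each transgenic group, at 2426 and 2948 against 2212 and 2094 CPM in 5xFAD mice and 2137 and 1777 against 1367 and 1053 CPM in 5xFAD-Dp16 mice, and their part was not tested. The length slope also separated the sexes in 5xFAD mice (females 0.1558 and 0.1239, males -0.1288 and -0.06538), though not in 5xFAD-Dp16 mice (females 0.01899 and 0.07865, males -0.1123 and 0.157), and its part was not tested. In the test of whether the transgene effect differed between the sexes, no member was called by edgeR, DESeq2 or limma. By edgeR 7 had an unadjusted p under 0.05, among them Ctsz at 1.02 (SE 0.34), Man2b1 at 1.02 (SE 0.38), Cd68 at 0.92 (SE 0.28) and Ctss at 0.61 (SE 0.21), as females minus males. Across all genes 0% were called and 4.57% had an unadjusted p under 0.05. Without wild-type replicate 1, which leaves wild-type replicate 3 as the lone wild-type female, 9 members were called, but so were 18.7% of all genes.

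The other lysosomal genes, 81 in 5 lists of which 79 were tested, were taken as a frame. In the pooled comparison 10 of 79 were called higher and none lower, and the median log2 fold change was 0.03. Cst7, which encodes cystatin F, an inhibitor of cysteine cathepsins, had between 0 and 31 counts in libraries without transgenes and between 678 and 3814 counts in transgenic libraries. Atp6v0d2, a tissue-restricted proton pump subunit, had 0 counts in all 8 libraries without transgenes and 10 to 100 counts in transgenic libraries, and Ctse, the aspartic protease cathepsin E, had 0 to 2 and 4 to 50 counts. Further called genes were Slc11a1 at 2.40 (SE 0.20), a metal ion transporter of phagosomes, Gpnmb at 3.02 (SE 0.45), Slc15a3 at 2.47 (SE 0.39) and Pld4 at 1.28 (SE 0.20). Of 17 other proton pump subunits 13 were below 0, with a median of -0.19 and Atp6v0d2 the only call, beside the 3 pump subunits described above. How far the values of these 17 rest on wild-type replicate 3 is not shown here, so a common fall of the pump is not shown. Of 18 sorting and biogenesis genes tested none was called by edgeR and 1 had an unadjusted p under 0.05; Lamtor5 at -0.48 (SE 0.29) and Lamtor3 at -0.46 (SE 0.24) were the lowest of the 79. Both values rest on wild-type replicate 3, whose 164.5 CPM of Lamtor5 and 164 CPM of Lamtor3 were the highest of 16, and without it they were -0.14 (SE 0.18) and -0.20 (SE 0.15).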

How the data were processed

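Cortex RNA of 16 mice was extracted with TRIzol, selected for poly-A and sequenced as strand-specific paired-end libraries, per the labels' protocols. Named in the submitters' processing notes are HTSeq 0.6.1, HISAT2 2.1.0 and build GRCm38, and the deposited tables name GENCODE M24; counting settings are not given in the sources used here. The authors deposited raw counts per gene and RPKM values; the RPKM are those counts rescaled by library and length (largest relative deviation 9.2e-14). The counts were tested with edgeR 4.0.16 in R 4.3.3 (quasi-likelihood test, trimmed-mean normalization, minimum count 10, all 16 libraries, sex as covariate), with Benjamini-Hochberg adjustment over 17555 genes and a threshold of 0.05. Summaries used Python 3.11.15. Library totals were 16874481 to 22912168 counts, and no replicate pair agreed within sampling noise. Sex labels matched sex-linked genes in 16 of 16 libraries. The labels do not say how animals were housed or batched, so p-values measure the spread between these mice.

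The test was tested on simulated data: in counts drawn on the model of 5xFAD against wild-type (17248 genes), the test recovered 4.48% of 1.5-fold changes, 35.8% of 2-fold and 89.4% of 4-fold changes and made 5 false calls. Alternatives were DESeq2 1.42.0, limma 3.58.1 on log2(RPKM + 0.1) and log2(RPKM + 1), a fit without the sex term, a fit without the low-count filter, DESeq2's size factors in edgeR, a replicate block, only the groups compared, a transcript-length slope per library (genes with mean log2 CPM over 2), each library left out, and, chosen after seeing the data, the 3 libraries of lowest slope left out.

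The members and lists were chosen with earlier results of these data known. Values by library are given for all myeloid-enriched genes, the others called in the pooled comparison, the 4 lowest, Tfeb, Lamp1 and Lamp2; of other lysosomal genes, the rule names the 8 called of smallest p, of which 1 is not reported here, and the 2 lowest.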

Additional observations from a re-analysis of the deposited data

Results flagged for a closer look

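In 9 of 172 sets of 4 libraries (43 genes in 4 groups), 1 library lay far from the other 3 by Dixon's test, where chance flags about 1 in 20 sets. Wild-type replicate 3, the library of lowest length slope, was that library in 6 of them. Its level was 50.5 CPM for Ctsh (the other wild-type libraries lay between 18.98 and 22.4), 433.4 CPM for Ctsd (between 314 and 332), 183.4 CPM for Lamp2 (between 98.8 and 106), 169.5 CPM for Npc2 (between 80.3 and 95.6), 19.7 CPM for Gusb (between 13.99 and 14.9) and, below the others, 15.9 CPM for Arsa (between 23 and 24.4). The part of the length slope in these values was not tested.

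In 5xFAD-Dp16 mice, replicate 3 had 114 CPM of Npc2, below the 171 to 182 CPM of the other 3. In wild-type mice, replicate 4 had 11.6 CPM of Tfeb, above 8.75 to 9.11 CPM. In Dp16 mice, replicate 2 had 316 CPM of Atp6v0d1, above 278 to 284 CPM.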

How the results depend on the processing

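Of the 43 genes, 12 were called in 5xFAD against wild-type, and 21 when the length slope was a covariate, 6 with only those groups in the fit and 9 to 15 with a library left out. In 5xFAD-Dp16 against Dp16, 3 were called, and 7 by DESeq2, 7 unfiltered, 14 with the length slope and 2 to 6 with a library left out (6 without wild-type replicate 3). In 5xFAD-Dp16 against wild-type, 4 were called, and 10 by DESeq2, 9 unfiltered, 16 with the length slope, 0 with only those groups, 9 without the 3 libraries of lowest slope (chosen after seeing the data) and 3 to 7 with a library left out (7 without wild-type replicate 3). In 5xFAD-Dp16 against 5xFAD, 0 were called, and 2 with the length slope. In the test of the sex difference 0 were called, and 0 to 9 with a library left out (9 without wild-type replicate 1). The cause was not tested. Fitting the slope raised calls among all genes too: in 5xFAD against wild-type the share called higher went from 1.5% to 3.99%. For 5xFAD-Dp16 against Dp16 and against wild-type, the share of all genes called by DESeq2, unfiltered or under the slope fit is not given here. Nor is it given without the 3 libraries of lowest slope. Those member counts are therefore not shown to be particular to lysosomal genes. The pooled count of 15 ran from 12 to 21. Dp16 against wild-type and the interaction had 0 calls in every alternative run. No called value changed sign.

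Replicate numbers do not pair the mice: of 24 same-numbered pairs, 9 had deviations correlated over 0.1 (range -0.354 to 0.514). With the replicate block the counts called were 11, 4, 4, 0, 0, 15, 0 and 0, for 5xFAD against wild-type, 5xFAD-Dp16 against Dp16, against wild-type, Dp16 against wild-type, 5xFAD-Dp16 against 5xFAD, pooled, interaction and sex difference. With 4 mice a group, changes under 2-fold were mostly not detectable.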
